A study of Mus musculus with 4 samples.

Results

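The antioxidant and glutathione system was followed as 35 genes, found by their mouse symbols among the 28987 genes of the deposited expression table. They are the superoxide, peroxide, thioredoxin and glutathione enzymes with the regulators Nfe2l2 and Keap1. RNA was sequenced from c-Kit-positive (CD117) bone marrow cells of C57BL/6 mice, selected on magnetic beads and described as haematopoietic stem and progenitor cells. The 2 libraries of the Hif1a-null group came from mice of genotype MllPTD/WT, Runx1Flox/Flox, Hif-1alpha Flox/Flox with Mx1-Cre, and the 2 libraries of the Hif1a-intact group from MllPTD/WT, Runx1Flox/Flox mice with Mx1-Cre and no floxed Hif1a. All 4 libraries are labelled Runx1null and thus shared the partial tandem duplication of Mll (Kmt2a), the deletion of floxed Runx1 and Mx1-Cre, whose interferon-inducible promoter also acts outside blood cells. The labels give no age, no time after induction, and no number of mice behind a library. The p-values thus cover the spread among these libraries alone, and that spread may be technical. Values are in TPM, a length-scaled relative abundance that keeps no read counts, and sequencing depth is therefore unknown.

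Cells in oxygen make superoxide and hydrogen peroxide. Superoxide dismutases turn superoxide into peroxide, which catalase, the glutathione peroxidases and the peroxiredoxins reduce. The reducing power comes from NADPH through thioredoxin and its reductases or through glutathione and glutathione reductase. The transcription factor NRF2 (Nfe2l2) switches on many of these genes at antioxidant response elements, and KEAP1 holds it down when oxidants are low. In blood formation the system is known for guarding stem cells against oxidants, for the neutrophil's oxidative burst and for protecting haemoglobin in red cells. HIF-1, of which Hif1a encodes the oxygen-regulated subunit, is known for limiting mitochondrial oxidant production at low oxygen.

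Of the 35 genes, 6 rose in Hif1a-null libraries and 0 fell. The risers were the peroxiredoxins Prdx2 and Prdx3, sulfiredoxin (Srxn1), the microsomal glutathione transferases Mgst1 and Mgst3, and the quinone reductase Nqo1. The bulk of the system, led by Gpx1, Gsr and Gpx4, did not pass the test. A gene was tested with limma on log2(TPM + 1) if it reached 1 TPM in at least 2 libraries, and called at a Benjamini-Hochberg adjusted p under 0.05 over all tested genes. The filter kept 32 of the 35, and 26 of these were not called. Among all 11909 genes tested the same rule called 7.27%, with 5.25% higher and 2.02% lower in Hif1a-null libraries. Srxn1, Mgst3 and Nqo1 did not reach 1 TPM in either Hif1a-intact library. They entered the test only because both Hif1a-null libraries were higher, so their direction was fixed by the filter. Among the 29 genes that entered through both groups, 3 were called higher (10.3%), where the share among all such genes was 2.62%. At an unadjusted p under 0.05 from limma, 9 genes were higher and 1, Txnip, was lower, together 31.25% of the 32, against 23.2% of all tested genes. The 9 include Srxn1, Mgst3 and Nqo1, whose direction was fixed by the filter, so no excess is read from this share. The groups did not overlap for 19 of the 32 (59.4%), these 3 included, close to the 55.0% of all tested genes. The median log2 fold change was 0.15 over the 32 and -0.06 over all tested genes. Without either Hif1a-null library none of the 6 kept its call. Nearly all calls over all genes were lost too, the spread then coming from the Hif1a-intact pair alone. Without Hif1a-intact replicate 1 the median log2 fold change was 0.21 over the 32, against -0.01 over all tested genes. Without Hif1a-intact replicate 2 these medians were 0.11 and -0.10.

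**Figure D1:**
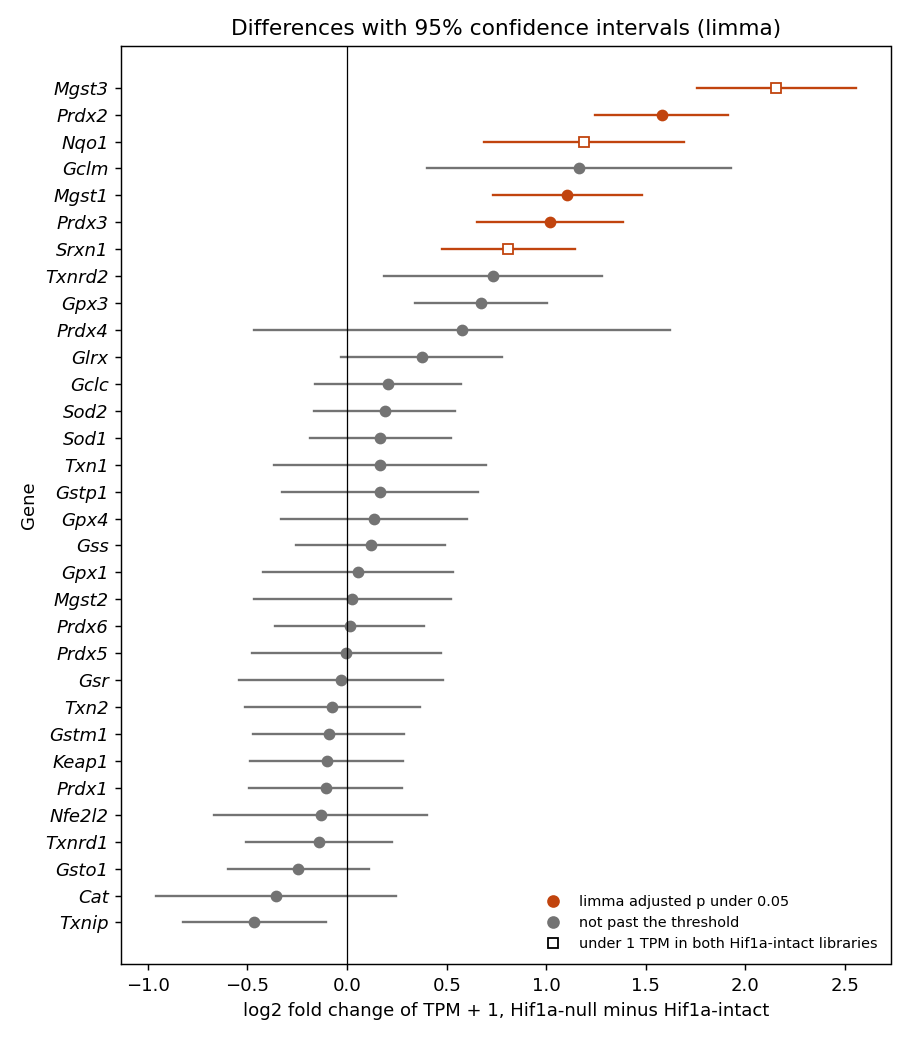
Log2 fold change of TPM + 1, Hif1a-null minus Hif1a-intact, for the 32 genes tested, with 95% confidence intervals from limma (2 libraries a group). Orange marks the 6 genes past an adjusted p of 0.05, all to the right of 0, and open squares the 3 genes under 1 TPM in both Hif1a-intact libraries.

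The targeted gene does not separate the groups at gene level. Hif1a stood at 98.8 and 113 TPM in Hif1a-null libraries, against 100 and 75.2 TPM in the Hif1a-intact libraries, a log2 fold change of 0.28 (limma, adjusted p = 0.479). Gene-level TPM also counts the undeleted exons and is no check of the deletion, so the Hif1a status of a library is taken from its label. The labels give Hif1anull for 1 group, and Hif1a-intact is the name used here for the libraries without the floxed Hif1a alleles. Runx1, labelled null in both groups, read 48.4 and 46.7 TPM in Hif1a-null libraries, against 73.6 and 76.6 TPM in Hif1a-intact libraries (log2 fold change -0.65, limma, adjusted p = 0.0636). These groups did not overlap, so Hif1a status and Runx1 level cannot be told apart. Kit, the receptor used for selection, read 121 and 102 TPM in Hif1a-null libraries, against 128 and 126 TPM in Hif1a-intact libraries.

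Cell type markers moved between the groups beside the antioxidant genes. Erythroid markers rose in 21 of 22 genes, and their summed level was 7888 and 8405 TPM in the Hif1a-null libraries, against 246 and 170 TPM in the Hif1a-intact libraries. Granulocyte markers, the most abundant of the lists, rose in 9 of 21. Their sums were 110202 and 107292 TPM in Hif1a-null libraries, against 65771 and 58959 TPM in Hif1a-intact libraries. Chil3 alone read 64447 and 62291 TPM in Hif1a-null libraries, against 30122 and 27349 TPM in Hif1a-intact libraries. Of the 21, the groups did not overlap for 13 higher and 4 lower genes, and overlapped for 4. Over all tested genes they did not overlap for 55.0%. No erythroid or granulocyte gene was at 0 in both libraries of a group. B-lineage markers rose in 10 of 13, with sums of 245 and 242 TPM in Hif1a-null libraries against 22.2 and 18.5 TPM in Hif1a-intact libraries. Dntt made up most of the Hif1a-null sums, at 189 and 188 TPM, against 9.41 and 10.2 TPM in Hif1a-intact libraries. Igll1 and Rag1 were at 0 in both Hif1a-intact libraries. Megakaryocyte markers rose in 8 of 14, with sums of 203 and 221 TPM in Hif1a-null libraries against 52.3 and 47.3 TPM in Hif1a-intact libraries, and Gp6 was at 0 in both Hif1a-intact libraries. Of 12 T and NK cell markers 7 rose, though their sums overlapped, at 192 and 219 TPM in Hif1a-null libraries against 184 and 291 TPM in Hif1a-intact libraries. Nkg7, not called, made up most of each sum, at 122 and 144 TPM in Hif1a-null libraries against 177 and 284 TPM in Hif1a-intact libraries. Gzma and Prf1 were at 0 in both Hif1a-intact libraries. Of 12 mast cell, basophil and eosinophil markers 2 rose and 3 fell. Their sums were lower, at 246 and 244 TPM in Hif1a-null libraries against 726 and 487 TPM in Hif1a-intact libraries. Cpa3 alone read 42.3 and 42.4 TPM in Hif1a-null libraries, against 526 and 289 TPM in Hif1a-intact libraries. The lower sums thus rest on this 1 gene. Fcer1a was at 0 in both Hif1a-null libraries and at 0.11 and 0 TPM in Hif1a-intact libraries, and Prss34 was at 0 in all 4. Of 18 monocyte, macrophage and dendritic cell markers 4 rose and 2 fell, with sums of 572 and 569 TPM in Hif1a-null libraries against 405 and 462 TPM in Hif1a-intact libraries and Cd5l at 0 in both Hif1a-intact libraries. Of 9 stromal and endothelial markers 2 rose and 2 fell, with sums of 75.2 and 84.3 TPM in Hif1a-null libraries against 63.0 and 55.1 TPM in Hif1a-intact libraries. Of 13 stem and progenitor markers 2 rose and 1 fell, with sums of 647 and 653 TPM in Hif1a-null libraries against 833 and 822 TPM in Hif1a-intact libraries. In bulk RNA, fewer cells of a type and less RNA per cell cannot be told apart. Not every marker met the filter. Those tested were 22 erythroid, 21 granulocyte, 11 B-lineage, 13 megakaryocyte and 8 T and NK cell genes. In the mast cell, monocyte, stromal and stem cell lists 9, 15, 8 and 12 were tested. Some marker calls were fixed by the filter, since the gene was tested only through the Hif1a-null libraries. These were 7 of the 21 erythroid calls, 8 of the 10 B-lineage, 5 of the 7 T and NK cell and 3 of the 8 megakaryocyte calls. They also were 1 of the higher calls each in the mast cell, monocyte and stem cell lists, and 0 of the granulocyte and stromal calls. The part of these cell types in the antioxidant differences below was not tested.

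**Figure D2:**
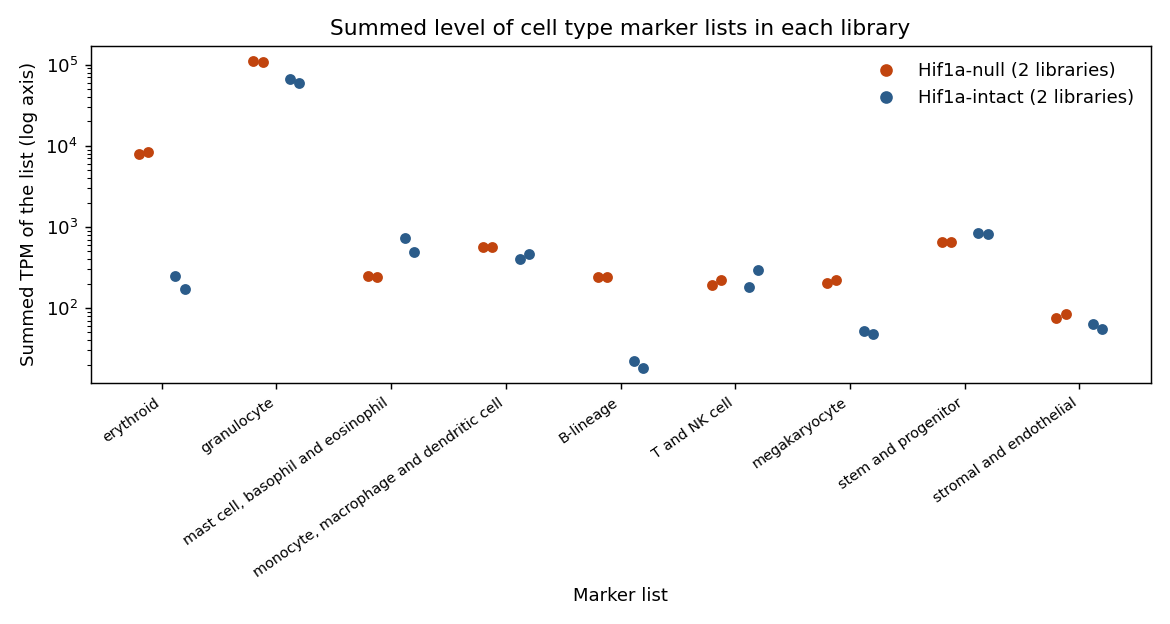
Summed TPM of 9 cell type marker lists (log axis) in each Hif1a-null and Hif1a-intact library, 1 circle a library. The erythroid sums lie at 7888 and 8405 TPM in Hif1a-null libraries, against 246 and 170 TPM in Hif1a-intact libraries. The mast cell, basophil and eosinophil sums lie lower in Hif1a-null libraries, which rests on the gene Cpa3.

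Neither regulator passed the test. Nfe2l2, which encodes NRF2 (ENSMUSG00000015839, GRCm38 chromosome 2, 75675513 to 75704641, minus strand), read 45.4 and 43.3 TPM in Hif1a-null libraries, against 56.8 and 41.6 TPM in Hif1a-intact libraries. Its groups overlapped, and the log2 fold change of -0.13 had a 95% interval of -0.67 to 0.40 (limma, adjusted p = 0.751). Keap1, the adaptor that marks NRF2 for degradation (ENSMUSG00000003308, chromosome 9, 21229730 to 21239361, minus strand), read 11.8 and 11.5 TPM in Hif1a-null libraries, against 13.6 and 11.6 TPM in Hif1a-intact libraries. These groups overlapped too, with a log2 fold change of -0.10 and an interval of -0.49 to 0.28 (limma, adjusted p = 0.727). Without Hif1a-intact replicate 1, the highest library for both genes, the 2 log2 fold changes turned to 0.09 for Nfe2l2 and 0.00099 for Keap1. NRF2 is controlled mainly through its protein, which these transcript levels do not measure.

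Promoter letters were searched for the core of the antioxidant response element, TGACNNNGC, on both strands of the 250 bases before each RefSeq start (GRCm38.p6). A promoter was found for 31 of the 35 genes, with Prdx6, Gclc, Gsr and Gsta4 not in the table. The core was present before at least 1 start of 6 of the 31 genes (19.4%), and of 11.5% of all 27025 genes with a promoter in the table. The 6 sites are shown because they hold the letters of this element within the windows, with the core in capitals and 10 bases on each side, each read 5′ to 3′ on the minus strand.
Gclm, chr3:122245413-122245441: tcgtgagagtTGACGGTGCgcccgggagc
Mgst1, chr6:138140461-138140489: ccccgcctccTGACCGTGCcaagccccgc
Nfe2l2, chr2:75704885-75704913: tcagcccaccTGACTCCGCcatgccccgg
Prdx1, chr4:116685456-116685484: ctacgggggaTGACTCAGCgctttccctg
Sod1, chr16:90220696-90220724: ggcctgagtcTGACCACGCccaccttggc
Txnrd1, chr10:82859104-82859132: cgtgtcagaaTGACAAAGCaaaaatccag
Of the 6 genes that rose, Mgst1 alone is in this set, and Prdx2, Prdx3, Srxn1, Mgst3 and Nqo1 had no match in the window. The core in Prdx1 also holds TGACTCA, the letters bound by AP-1. The hypoxia response element core, known for HIF-1 binding, was searched as ACGTG only, and other forms of it were not searched. ACGTG was found in 8 of the 31 genes (25.8%) and in 18.5% of all genes. The 8 were Gclm, Gpx1, Gpx8, Gstm1, Gstp1, Keap1, Prdx4 and Txnrd2. None of the 6 genes that rose had ACGTG in the window. In Gclm the 2 cores do not overlap, lying 126 to 134 and 63 to 67 bases before the start. A match describes letters and is not a bound site, and elements farther from the start were not searched.

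**Figure D3:**
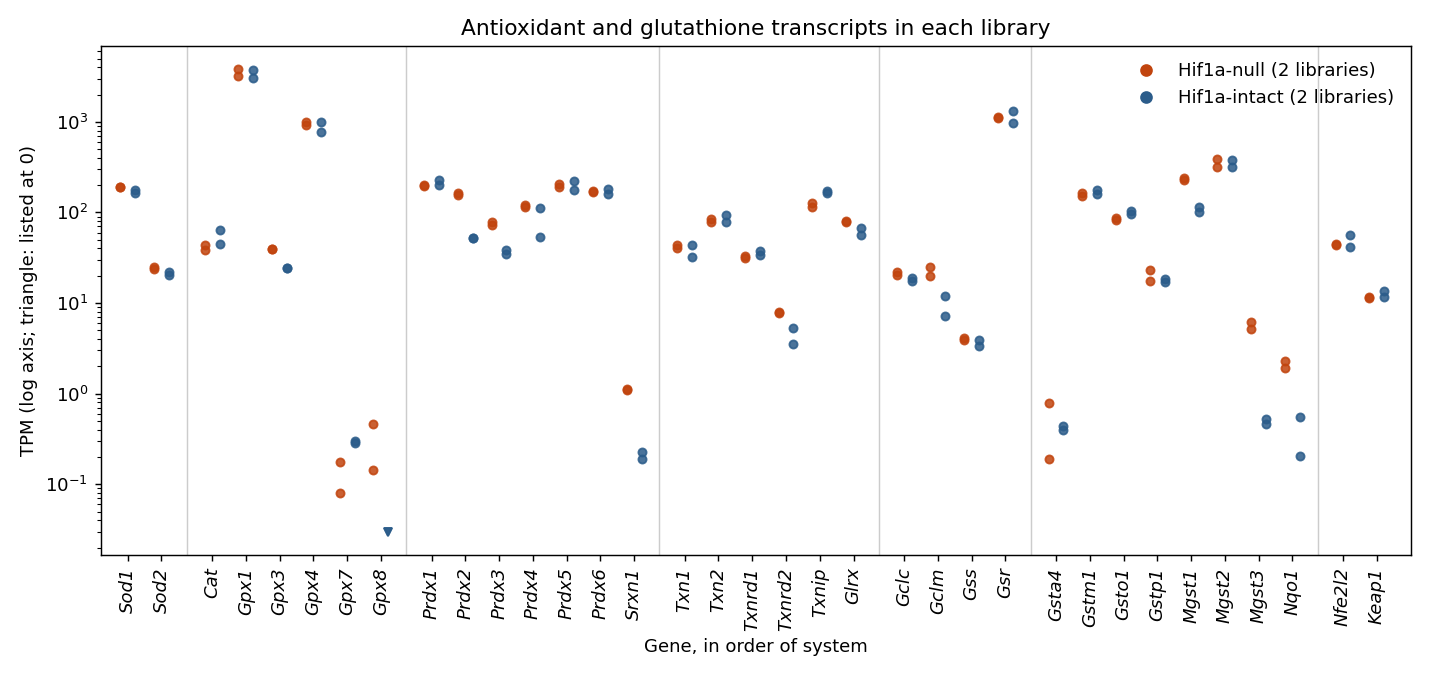
TPM (log axis) of the 35 genes in each library, in order of system, with Hif1a-null circles left of Hif1a-intact circles and triangles for values listed at 0. Gpx1 lies between 3076 and 3823 TPM in the 4 libraries. The genes that rose include abundant (Prdx2, Prdx3, Mgst1) and scarce (Mgst3, Nqo1, Srxn1) transcripts. The scarce ones were tested only through the Hif1a-null libraries, so their direction was fixed by the filter.

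Levels spanned a wide range. Averaged over the 4 libraries, 13 genes lay at or above 100 TPM, 14 between 10 and 100 TPM, 4 between 1 and 10 TPM and 4 under 1 TPM. Gpx1, which encodes the main cytosolic glutathione peroxidase, ranked 33rd of all genes by mean TPM. It alone made up 41.4% and 45.2% of the TPM of the 35 genes in Hif1a-null libraries, and 42.4% and 46.0% in Hif1a-intact libraries. Summed over the 35 genes, the system read 7828 and 8468 TPM in Hif1a-null libraries, against 7258 and 8121 TPM in Hif1a-intact libraries, so the totals overlapped. Hif1a-null libraries lay closer to each other than Hif1a-intact libraries did, with a median ratio of the higher to the lower library of 1.06 in the Hif1a-null and 1.17 in the Hif1a-intact group over the 32 genes tested. The same ratios over all tested genes were 1.10 in the Hif1a-null and 1.23 in the Hif1a-intact group.

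Superoxide dismutases did not pass the test. Sod1, the cytosolic copper-zinc enzyme, read 191 and 193 TPM in Hif1a-null libraries, against 179 and 164 TPM in Hif1a-intact libraries. Its groups did not overlap, but the log2 fold change was only 0.17, with a 95% interval of -0.18 to 0.52 (limma, adjusted p = 0.519). Sod2, the mitochondrial manganese enzyme, read 23.9 and 24.7 TPM in Hif1a-null libraries, against 22.2 and 20.2 TPM in Hif1a-intact libraries (log2 fold change 0.19, limma, adjusted p = 0.470). Sod2 made up 35.7% of its joint TPM with Rps6ka2, which has a stretch of near-identical annotated transcript, so its value is uncertain.

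Among catalase and the glutathione peroxidases, 4 of 6 genes were tested and 0 were called by limma, with 1, Gpx3, at an unadjusted p under 0.05. Gpx3, the secreted glutathione peroxidase (ENSMUSG00000018339, chromosome 11, 54902453 to 54910377, plus strand), read 39.4 and 39.2 TPM in Hif1a-null libraries, against 24.4 and 24.3 TPM in Hif1a-intact libraries. The libraries of each group lay almost on top of each other, and the groups were well apart. The log2 fold change of 0.67 (SE 0.12) was just outside the threshold (limma, adjusted p = 0.0571). It passed in 5 of its 14 alternatives, among them quantile normalization (adjusted p = 0.0463) and protein-coding genes only (adjusted p = 0.0491), with adjusted p of 0.0428 to 0.629 over all 14. Gpx1 read 3242 and 3823 TPM in Hif1a-null libraries, against 3076 and 3735 TPM in Hif1a-intact libraries, with overlapping groups and an interval of -0.42 to 0.53 around a log2 fold change of 0.05. Gpx4, the selenoenzyme that reduces lipid peroxides within membranes and guards against ferroptosis, read 929 and 991 TPM in Hif1a-null libraries, against 778 and 984 TPM in Hif1a-intact libraries. Its interval was -0.33 to 0.60. Cat, the peroxisomal catalase, read 44.0 and 38.6 TPM in Hif1a-null libraries, against 63.4 and 44.3 TPM in Hif1a-intact libraries. The groups only just missed each other, and the difference did not pass (log2 fold change -0.35, limma, adjusted p = 0.430). Gpx7 and Gpx8, enzymes of the endoplasmic reticulum, stayed under 1 TPM in every library and were not tested. Gpx7 read 0.080 and 0.18 TPM in Hif1a-null libraries, against 0.30 and 0.28 TPM in Hif1a-intact libraries. Gpx8 read 0.14 and 0.47 TPM in Hif1a-null libraries, and both Hif1a-intact libraries list it at 0.

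Peroxiredoxins reduce peroxide with a reactive cysteine, and 2 of the 6 rose. Among all genes tested through both groups 2.62% were called higher. Prdx2, a cytosolic enzyme known for its abundance in red cells (ENSMUSG00000005161, chromosome 8, 84969587 to 84974834, plus strand), read 156 and 162 TPM in Hif1a-null libraries, against 52.3 and 52.8 TPM in Hif1a-intact libraries. Both Hif1a-null libraries were far above the Hif1a-intact pair, and the libraries within each group were close. Prdx2 was higher by 1.58 on the log2 scale (SE 0.12, limma, adjusted p = 0.00970). Prdx2 made up 99.9% of its joint TPM with a near-identical processed pseudogene, and their sum gave a log2 fold change of 1.57. Prdx3, the mitochondrial peroxiredoxin (ENSMUSG00000024997, chromosome 19, 60864051 to 60874556, minus strand), read 72.9 and 78.0 TPM in Hif1a-null libraries, against 35 and 38.5 TPM in Hif1a-intact libraries. The groups did not overlap, and Prdx3 was higher by 1.02 on the log2 scale (SE 0.13, limma, adjusted p = 0.0284). Both calls were lost without either Hif1a-null library, where the adjusted p was 0.158 and 0.199 for Prdx2 and 0.335 and 0.431 for Prdx3, with log2 fold changes of 1.6 and 1.55, and 1.07 and 0.97.

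The other four peroxiredoxins did not pass. Prdx4, which works in the endoplasmic reticulum (ENSMUSG00000025289, chromosome X, 155323918 to 155340754, minus strand), read 120 and 114 TPM in Hif1a-null libraries, against 113 and 54.0 TPM in Hif1a-intact libraries. Its low value sat in Hif1a-intact replicate 2, and the log2 fold change of 0.58 did not pass (limma, adjusted p = 0.454). Without Hif1a-intact replicate 1 it was 1.10 and passed (adjusted p = 0.0395), and without replicate 2 it was 0.05. The cytosolic Prdx1 averaged 199 ± 4.53 TPM in Hif1a-null libraries and 214 ± 21.5 TPM in Hif1a-intact libraries (SD, n = 2 each). Prdx5, found in mitochondria and peroxisomes, averaged 198 ± 10.7 TPM and 199 ± 33.5 TPM in the Hif1a-null and Hif1a-intact groups. Prdx6, which reduces phospholipid peroxides and relies on glutathione, averaged 172 ± 2.46 TPM in Hif1a-null libraries and 171 ± 15.5 TPM in Hif1a-intact libraries. For Prdx1, Prdx5 and Prdx6 the 95% intervals of the log2 fold change all lay within -0.49 and 0.47. The make-up of the family therefore shifted. Prdx2 supplied 17.0% and 17.6% of peroxiredoxin TPM in Hif1a-null libraries, against 6.27% and 7.76% in Hif1a-intact libraries. Prdx1 supplied 21.2% and 22.0% in Hif1a-null libraries, against 27.5% and 29.3% in Hif1a-intact libraries. These shares are parts of 1 sum and were given no test.

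Srxn1, sulfiredoxin, restores peroxiredoxins whose cysteine has been over-oxidised and is a known NRF2 target (ENSMUSG00000032802, chromosome 2, 152105516 to 152111376, plus strand). It read 1.10 and 1.13 TPM in Hif1a-null libraries, against 0.23 and 0.19 TPM in Hif1a-intact libraries. All 4 values are low, and the Hif1a-null libraries lay just above the 1 TPM filter. Its log2 fold change of 0.81 passed (limma, adjusted p = 0.0387) but the call was lost in 3 of 11 alternatives: quantile normalization (0.27, adjusted p = 0.274), a variance trend (adjusted p = 0.0795) and leaving out Hif1a-intact replicate 2 (0.79, adjusted p = 0.0602). With a pseudocount of 0.1 the log2 fold change was 1.99 (adjusted p = 0.0119). Over these 11, which tested it, the limma adjusted p ran between 0.0119 and 0.274. Srxn1 was not tested, as it did not meet the filter, at 1 TPM on average or without either Hif1a-null library.

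**Figure D4:**
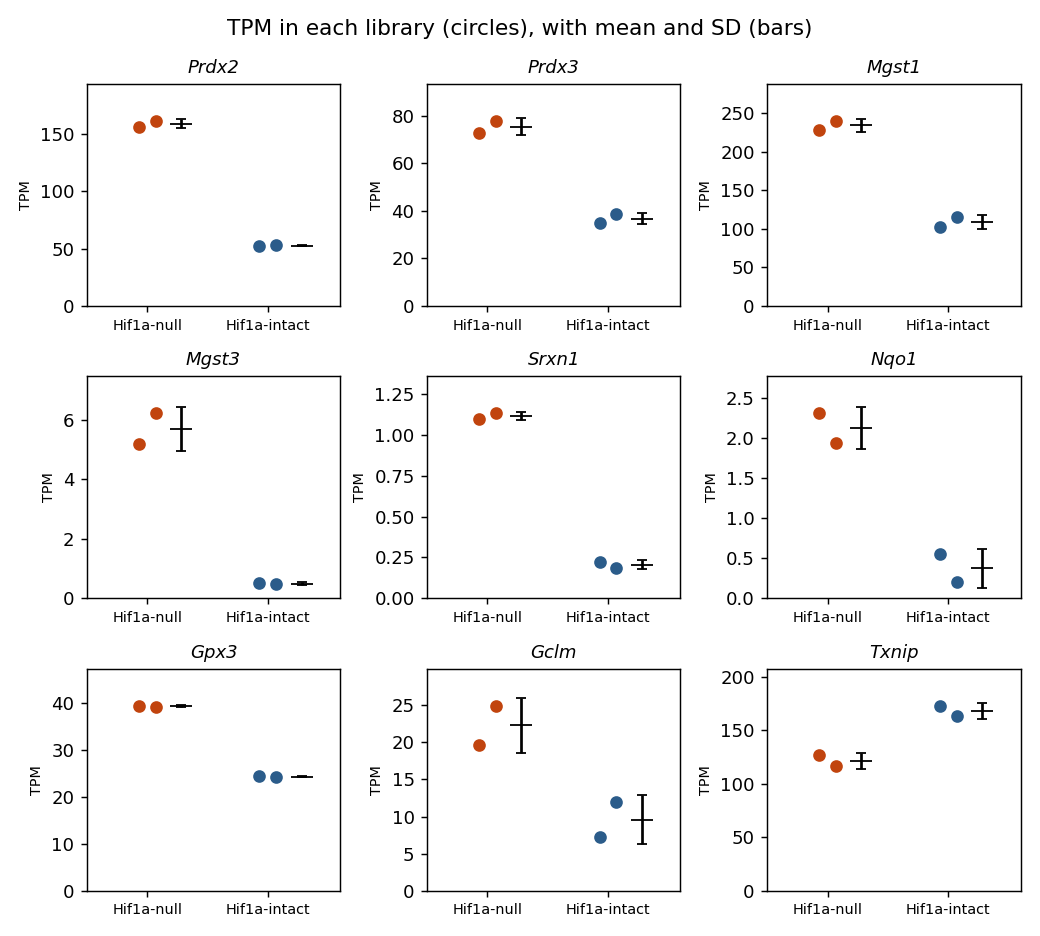
TPM of 9 genes in each Hif1a-null library (left) and Hif1a-intact library (right), with axes from 0, circles for libraries and bars for the mean and SD of 2 libraries. The groups do not overlap in any panel, which the filter fixed in advance for Srxn1, Mgst3 and Nqo1. The other genes were picked from those with an unadjusted limma p under 0.05 in these same data, which favours separation. Over all tested genes the groups did not overlap for 55.0%. Txnip alone is lower in the Hif1a-null libraries, and the differences of Gpx3, Gclm and Txnip did not pass the test.

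None of the 6 thioredoxin and glutaredoxin genes was called by limma, with Txnrd2 higher and Txnip lower at an unadjusted p under 0.05. Txnrd2, the mitochondrial thioredoxin reductase (ENSMUSG00000075704, chromosome 16, 18426384 to 18479073, plus strand), read 7.74 and 8.05 TPM in Hif1a-null libraries, against 5.28 and 3.56 TPM in Hif1a-intact libraries. The groups did not overlap, and the log2 fold change of 0.73 did not pass (limma, adjusted p = 0.133), except without Hif1a-intact replicate 1 (0.96, adjusted p = 0.0431). Txnip, which binds and blocks thioredoxin and restrains glucose uptake (ENSMUSG00000038393, chromosome 3, 96557957 to 96561883, plus strand), read 126 and 116 TPM in Hif1a-null libraries, against 173 and 163 TPM in Hif1a-intact libraries. Both Hif1a-null libraries were below both Hif1a-intact ones, with a log2 fold change of -0.47, which missed the threshold (limma, adjusted p = 0.141). Txnip had the most negative log2 fold change of the 32 genes. Glrx, a glutaredoxin that removes glutathione from proteins, read 80.4 and 78.6 TPM in Hif1a-null libraries, against 66.6 and 56.0 TPM in Hif1a-intact libraries (log2 fold change 0.37, limma, adjusted p = 0.241). Cytosolic thioredoxin (Txn1) averaged 42.4 ± 2.0 TPM in Hif1a-null libraries and 38.1 ± 8.27 TPM in Hif1a-intact libraries. Mitochondrial thioredoxin (Txn2) averaged 81.4 ± 4.34 TPM in Hif1a-null libraries and 86.1 ± 12.2 TPM in Hif1a-intact libraries. Txnrd1, the cytosolic reductase and a known NRF2 target, averaged 32.4 ± 1.13 TPM in Hif1a-null libraries and 35.9 ± 2.79 TPM in Hif1a-intact libraries (SD, n = 2 each), with an interval of the log2 fold change of -0.51 to 0.23.

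None of the 4 genes that make or recycle glutathione was called by limma, with Gclm at an unadjusted p under 0.05. Gclm, the modifier subunit of the rate-limiting glutamate-cysteine ligase (ENSMUSG00000028124, chromosome 3, 122245557 to 122270732, plus strand), read 19.6 and 24.9 TPM in Hif1a-null libraries, against 7.23 and 11.9 TPM in Hif1a-intact libraries. The groups lay apart but spread widely, and the log2 fold change of 1.16 (SE 0.28) missed the threshold (limma, adjusted p = 0.105). An annotated Gclm transcript shares a near-identical stretch of 228 bases with the abundant Ppia, and others with 3 further genes. Summed with all 4 the log2 fold change was 0.53 (limma, adjusted p = 0.198). That sum is mostly Ppia, a different gene, at 59.8 and 77.9 TPM in Hif1a-null libraries against 47.0 and 54.9 TPM in Hif1a-intact libraries. Gclc, the catalytic subunit of the same ligase, averaged 21.1 ± 1.23 TPM in Hif1a-null libraries and 18.1 ± 1.2 TPM in Hif1a-intact libraries (SD, n = 2 each; log2 fold change 0.20, limma, adjusted p = 0.451). Gss, glutathione synthetase, was the scarcest of the 4, with 4.16 and 3.96 TPM in Hif1a-null libraries, against 3.95 and 3.38 TPM in Hif1a-intact libraries. Gsr, which recycles oxidised glutathione with NADPH, was among the most abundant transcripts of the cells, at rank 96 by mean TPM. It read 1090 and 1127 TPM in Hif1a-null libraries, against 980 and 1306 TPM in Hif1a-intact libraries, with an interval of -0.54 to 0.48.

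Among the 8 conjugating and quinone-reducing enzymes Mgst1, Mgst3 and Nqo1 were called higher. The directions of Mgst3 and Nqo1 were fixed by the filter, so Mgst1 was the 1 call free of it, where 2.62% of all genes tested through both groups were called higher. Mgst1, a membrane-bound glutathione transferase with peroxidase activity (ENSMUSG00000008540, chromosome 6, 138140316 to 138156755, plus strand), read 228 and 240 TPM in Hif1a-null libraries, against 102 and 115 TPM in Hif1a-intact libraries. The Hif1a-null pair stood clear above the Hif1a-intact pair, with a log2 fold change of 1.11 (SE 0.14; limma, adjusted p = 0.0253). Without either Hif1a-null library the log2 fold change was 1.14 and 1.07 and the call was lost (adjusted p = 0.303 and 0.388). Mgst3, its relative known for leukotriene and peroxide metabolism (ENSMUSG00000026688, chromosome 1, 167371966 to 167393841, minus strand), read 5.17 and 6.22 TPM in Hif1a-null libraries, against 0.53 and 0.47 TPM in Hif1a-intact libraries. Its log2 fold change of 2.16 (SE 0.15) was the largest of the 32 genes (limma, adjusted p = 0.00798) and passed in each of the 12 alternatives that tested it, the adjusted p reaching 0.0339. With a pseudocount of 0.1 the log2 fold change was 3.27. Without a Hif1a-null library it no longer met the filter. Mgst2, the most abundant of these transferases, read 390 and 321 TPM in Hif1a-null libraries, against 382 and 316 TPM in Hif1a-intact libraries, with overlapping groups and an interval of -0.47 to 0.52. Mgst1 supplied 36.6% and 42.4% of the TPM of the 3 Mgst genes in Hif1a-null libraries, against 21.1% and 26.6% in Hif1a-intact libraries, as a share given no test.

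Nqo1, the quinone reductase widely used as a readout of NRF2 activity (ENSMUSG00000003849, chromosome 8, 107388225 to 107403206, minus strand), read 2.32 and 1.94 TPM in Hif1a-null libraries, against 0.55 and 0.21 TPM in Hif1a-intact libraries. That the groups did not overlap was fixed by the filter, and levels were low throughout. Its log2 fold change of 1.19 passed (limma, adjusted p = 0.0402) but the call was lost in 5 of 12 alternatives, with an adjusted p between 0.0264 and 0.0806 over all 12. Those 5 were a pseudocount of 0.1, no filter, quantile normalization, a variance trend, and leaving out Hif1a-intact replicate 2. With that pseudocount the log2 fold change was 2.31. Nqo1 no longer met the filter, and was not tested, without either Hif1a-null library.

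The cytosolic glutathione transferases did not pass. Gstm1 averaged 158 ± 8.10 TPM in Hif1a-null libraries and 168 ± 13.8 TPM in Hif1a-intact libraries. Gsto1, of the omega class, read 81.5 and 87.0 TPM in Hif1a-null libraries, against 96.6 and 103 TPM in Hif1a-intact libraries (log2 fold change -0.24, limma, adjusted p = 0.360). Gstp1, of the pi class, read 17.5 and 23.1 TPM in Hif1a-null libraries, against 18.4 and 17.2 TPM in Hif1a-intact libraries. Gstp1 made up 71.7% of its joint TPM with its near-identical neighbour Gstp2, so its value depends on how reads were split. Gsta4, of the alpha class, stayed under 1 TPM in every library and was not tested, at 0.19 and 0.79 TPM in Hif1a-null libraries, against 0.39 and 0.44 TPM in Hif1a-intact libraries.

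The wider glutathione, thioredoxin and NRF2 systems showed few calls. Of 104 further genes, 74 were tested, 2 rose and 1 fell, or 4.05% called against 7.27% of all tested genes. Blvrb, a biliverdin and flavin reductase of haem breakdown known for its abundance in red cells, read 156 and 179 TPM in Hif1a-null libraries, against 9.71 and 19.4 TPM in Hif1a-intact libraries (log2 fold change 3.51, limma, adjusted p = 0.0153). Both Hif1a-null libraries lay far above the Hif1a-intact pair, though the call was lost with no filter on low values (adjusted p = 0.0564). Gstm5, a mu-class glutathione transferase, read 19.1 and 19.9 TPM in Hif1a-null libraries, against 2.76 and 2.86 TPM in Hif1a-intact libraries (log2 fold change 2.43, limma, adjusted p = 0.00524). Gstm7, of the same class and the same cluster on chromosome 3, fell, with 1.51 and 1.34 TPM in Hif1a-null libraries, against 7.21 and 6.09 TPM in Hif1a-intact libraries (log2 fold change -1.65, limma, adjusted p = 0.0124). Within the mu class, neighbours on chromosome 3 thus lay in opposite directions, while Gstm1 was not called. The 3 calls were lost without either Hif1a-null library, as were nearly all calls over all genes. Their log2 fold changes kept their signs. Among the 24 tested glutathione and thioredoxin enzymes, the 12 of glutathione supply and breakdown, and the 22 NRF2 partners and targets, limma called 0, 0 and 1. At an unadjusted p under 0.05, 1 was higher and 3 lower, 1 higher and 1 lower, and 5 higher and 2 lower in those lists. Over all tested genes 23.2% lay under this p. Of the 22 NRF2 partners and targets tested, the groups did not overlap for 6 higher and 8 lower genes and overlapped for 8. Over all 11909 tested genes they did not overlap for 55.0%, with 2704 higher and 3841 lower. The median log2 fold change of the 22 was -0.07, against -0.06 over all tested genes.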

How the data were processed

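c-Kit-positive marrow RNA was made into libraries by Illumina protocols, per the labels' protocols. kallisto and the mm10 build are named, per the submitters' processing notes; the sources used here name no version, transcript set or strand. The authors deposited 1 TPM value per Ensembl gene and library, a unit inferred from column sums of 955562 to 963135. Symbols and coordinates came from GENCODE vM21 (GRCm38), matching 27458 of 28987 genes. TPM is relative, so a rise in abundant transcripts lowers others.

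Hif1a-null minus Hif1a-intact differences were fitted with limma 3.58.1 (R 4.3.3, two-sided, no trend or robust option) on log2(TPM + 1), which understates changes of low genes. Genes had to reach 1 TPM in 2 or more libraries. Benjamini-Hochberg adjustment ran over all genes tested. Near-identical transcript stretches were searched with blastn 2.17.0 (at least 95% identity over 50% of the shorter transcript and 100 bases). Of the 35 genes 6 shared one with another gene or pseudogene. For Gclm and Sod2 those other genes, mainly Ppia and Rps6ka2, summed higher. Libraries were given for genes called, at an unadjusted p under 0.05, or not overlapping with a log2 fold change of at least 0.5 either way, for Nfe2l2 and Keap1, and for some others. Of the wider pathway, called genes were named. The 35 genes and all lists were chosen with earlier results of these data known. Figures used matplotlib 3.10.9 in Python 3.11.15. Alternatives are given under the closing section.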

Additional observations from a re-analysis of the deposited data

How the results depend on the processing

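No paired analysis was possible because the labels give no replicate numbers shared between the groups. The 6 antioxidant genes higher and 0 lower by limma became 0 to 8 higher when 1 library was left out, and 5 to 7 under the other alternatives (pseudocounts of 0.1 and 0.5, other filters, quantile and median-ratio rescaling, trend and robust variances, protein-coding genes only, and the 50 most abundant genes left out); 0 were lower in all. The 2 higher and 1 lower of the further pathway genes became 0 to 6 and 0 to 5 with 1 library left out, and 1 was higher with no filter on low values. Calls over all genes, 866, became 568 with no filter, which tests more genes, and 0 to 1019 with 1 library left out. With a Hif1a-null library left out, the lone one is assumed to vary like the Hif1a-intact pair. The direction turned for Nfe2l2 (log2 fold change 0.091) and Keap1 (0.00099) without Hif1a-intact replicate 1, neither being called; with any 1 library left out, Nfe2l2 ran from -0.35 to 0.09 and Keap1 from -0.21 to 0.00099. Of 219 values over 16 named genes, 189 kept direction and side of the threshold, 21 lost a call and 7 gained one. Settings in which a gene did not meet the filter are not among these values. Depth is unknown, so precision at low TPM cannot be given.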
